A study of Rattus norvegicus with 60 samples.

Results

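The dentate gyrus of 24-month rats labelled impaired was compared with that of 12-month adult rats, on 8 of the 60 bead arrays of a study of ageing in the rat hippocampus. All rats were Fischer 344 x Brown Norway F1-hybrids (F344BN), a cross bred for ageing research. The compared groups were the 4 dentate gyrus arrays of aged impaired rats (24 months) and the 4 dentate gyrus arrays of adult rats (12 months), chosen by the region and age group in their titles. A further 4 arrays of aged intact rats (24 months) on the same slide are given beside them, and no treatment or genetic change was named for any group. The labels did not say on which measure a rat was called impaired or intact, nor tie any sample to an animal of its own, so the p-values reflect no more than the spread among these samples, which may be technical. The 12 dentate gyrus arrays filled 1 slide, with each group on neighbouring sections, so group and position on the slide cannot be told apart. Of 22523 probes on the array, 9749 were detected at a detection p-value under 0.01 on 4 or more of the 8 arrays and were tested. Of these, 8503 were detected on all 8 arrays and 323 on exactly 4, the least that was admitted, while 381 probes detected on 3 arrays were left out.

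The dentate gyrus is the entry gate of the hippocampal circuit. Its granule neurons receive the input of the entorhinal cortex and pass it through mossy fibres to the pyramidal neurons of CA3, which in turn project to CA1. It is known for sparse firing, for the separation of similar memories and for the birth of granule neurons in adult life, which slows with age. Microglia, the resident immune cells, are known to express more antigen-presentation and complement genes as the brain grows old.

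Between 40.64% and 46.6% of probes were detected per dentate gyrus array. Levels are log2 intensities after background correction and quantile normalization, and a difference is a log2 difference between group means with its standard error from limma. Of 16 markers of granule neurons on the array, 11 were tested and 5 were detected on none of the 8 arrays. All 11 had a higher mean level over the dentate gyrus arrays than over the CA1 or CA3 arrays. Since a tested marker had to be detected in the dentate gyrus, this count alone cannot show that the tissue matched its label. Of CA1 and CA3 markers that passed the same filter, 3 of 4 and 6 of 8 were highest in their own region. C1ql2, a synaptic protein of granule neurons, averaged 9.92 in the dentate gyrus, 6.27 in CA1 and 6.13 in CA3. Arrays of 1 group did not lie together: on the first principal component, with 42.7% of the variance over the 12 arrays, impaired replicate 1 was at 30.1 and impaired replicate 2 at -19.4, and the adult arrays ran from -13.5 to 21.4. Correlations between impaired arrays ran from 0.9577 to 0.9934, and those of impaired with adult arrays from 0.9617 to 0.9913. Whole tissue was hybridized, so fewer cells of a type and less RNA per cell cannot be told apart in any value below.

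Of the 9749 probes, 3 were higher in the impaired dentate gyrus at an adjusted p under 0.05 (0.0308% of probes tested) and 0 were lower (0%), by limma with Benjamini-Hochberg adjustment. All 3 belong to genes known by locus number, LOC499029, LOC688464 and LOC499036, which the array annotation places on chromosome 1. The annotation calls LOC499036 similar to a kinesin, a family of motor proteins that carry cargo along microtubules, and gives no function for the other two. None of the 3 is in the RefSeq gene table used here, so no sequence or current name is given for them. Each rose to about 3 times the adult level, and the separation of impaired from adult arrays was wider than the spread within either group.

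LOC499029 had log2 intensities of 9.94, 9.62, 9.29 and 9.31 on the impaired arrays, against 7.82, 7.58, 7.66 and 7.93 on the adult arrays. The lowest impaired array lay above the highest adult array by more than the range of either group. Its difference was 1.80 ± 0.16 (3.47-fold, adjusted p = 0.000247, limma). LOC688464 had 7.58, 7.88, 7.45 and 7.64 on the impaired arrays, against 6.12, 6.31, 6.02 and 6.18 on the adult arrays. These groups were also fully apart, and both were tight. The difference was 1.48 ± 0.15 (2.78-fold, adjusted p = 0.000616, limma).

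LOC499036 had 7.46, 8.23, 7.43 and 7.80 on the impaired arrays, against 6.34, 6.26, 6.17 and 5.36 on the adult arrays. The groups did not overlap, and adult replicate 4, the lowest array, was the 1 adult array on which the probe was not detected. The difference was 1.70 ± 0.22 (3.24-fold, adjusted p = 0.00801, limma). Without adult replicate 4 it was 1.47 and the call was kept. This call was the least firm of the 3, since its adjusted p was 0.342 in the processed values (limma), where LOC499029 and LOC688464 kept their calls. In a fit with the CA1 and CA3 arrays LOC499036 (adjusted p = 0.0994) and LOC499029 (adjusted p = 0.111) both lost their calls (limma).

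The aged intact arrays resembled the impaired ones at these probes. LOC499029 had 9.86, 9.50, 9.69 and 9.48 on the intact arrays, LOC688464 had 7.26, 7.67, 7.84 and 7.86, and LOC499036 had 8.29, 7.99, 8.08 and 8.07. All of these lay above every adult array. Impaired minus intact was -0.09 ± 0.16, -0.02 ± 0.15 and -0.38 ± 0.22 for the 3 probes in that order, with adjusted p of 0.917, 0.979 and 0.895 (limma). Intact against adult rats called the same number, 3 of 9749 probes (0.0308%), and shares the adult arrays with the comparison above. Between impaired and intact rats limma called 0 of 9749 probes (0%), with 185 at an unadjusted p under 0.05. That second count was 69 without impaired replicate 1, 1125 without impaired replicate 2, 96 without impaired replicate 3, 2190 with array weights, 76 with a replicate block and 495 with no detection filter.

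**Figure D1:**
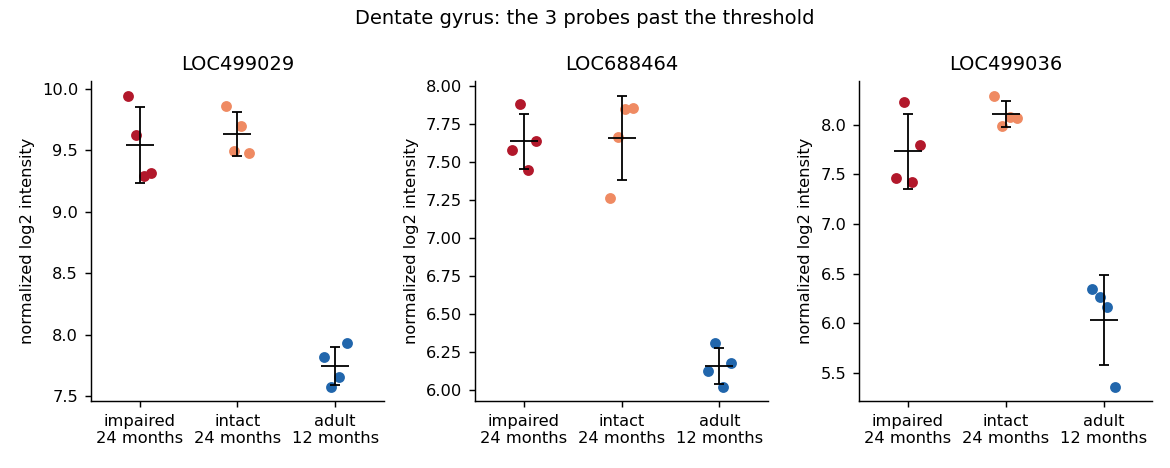
Normalized log2 intensity of the 3 called probes on the 12 dentate gyrus arrays, by group, with a point per array and the mean ± SD (n = 4 per group). For each probe the 4 impaired and the 4 intact arrays lie above the 4 adult arrays, and impaired and intact arrays overlap.

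The same probes were read in the other dissections, each from its own arrays. In CA3, impaired minus adult was 0.35 ± 0.20 for LOC499029, 0.30 ± 0.11 for LOC688464 and 0.38 ± 0.22 for LOC499036, with adjusted p of 0.723, 0.51 and 0.727 (limma over the same 9749 probes). In CA1 without adult replicate 4, an array on which only 22.22% of probes were detected, the values were 0.54 ± 0.32, 0.75 ± 0.22 and 0.74 ± 0.37, with adjusted p of 0.584, 0.57 and 0.57. On CA1 adult replicate 1, which was kept, LOC688464 (5.32) and LOC499036 (5.15) were not detected. Whole hippocampus, which contains the dentate gyrus, had 1.26 ± 0.11 (adjusted p = 2.94e-07), 0.71 ± 0.10 (adjusted p = 0.000228) and 1.19 ± 0.12 (adjusted p = 9.83e-07), from 9 impaired and 6 adult arrays. There LOC688464 was detected on all 9 impaired but only 2 of the 6 adult arrays.

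The levels behind these differences were not alike across regions. LOC499029 averaged 9.54 ± 0.31 on impaired and 7.75 ± 0.16 on adult dentate gyrus arrays, and 8.12 ± 0.41 on impaired and 7.77 ± 0.38 on adult CA3 arrays (SD, n = 4 each). Adult levels of this probe were thus close in both regions, and the impaired dentate gyrus stood above the other three groups. LOC499036 averaged 7.73 ± 0.38 on impaired and 6.03 ± 0.45 on adult dentate gyrus arrays, and 8.13 ± 0.43 on impaired and 7.74 ± 0.14 on adult CA3 arrays (SD, n = 4 each). Here the adult dentate gyrus was the low one. LOC688464 averaged 7.64 ± 0.18 on impaired and 6.16 ± 0.12 on adult dentate gyrus arrays, and 6.76 ± 0.17 on impaired and 6.46 ± 0.08 on adult CA3 arrays (SD, n = 4 each), and in CA3 the groups did not overlap either.

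The difference between regions was tested itself, as the dentate gyrus difference minus the CA3 difference in a fit of 36 arrays. It was 1.45 ± 0.54 for LOC499029 (unadjusted p = 0.011), 1.18 ± 0.36 for LOC688464 (unadjusted p = 0.0028) and 1.31 ± 0.48 for LOC499036 (unadjusted p = 0.00991), each with an adjusted p of 1.0 (limma). No region difference of these probes therefore passed the threshold. Since every region had its own slide, effects of region and of slide cannot be told apart.

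**Figure D2:**
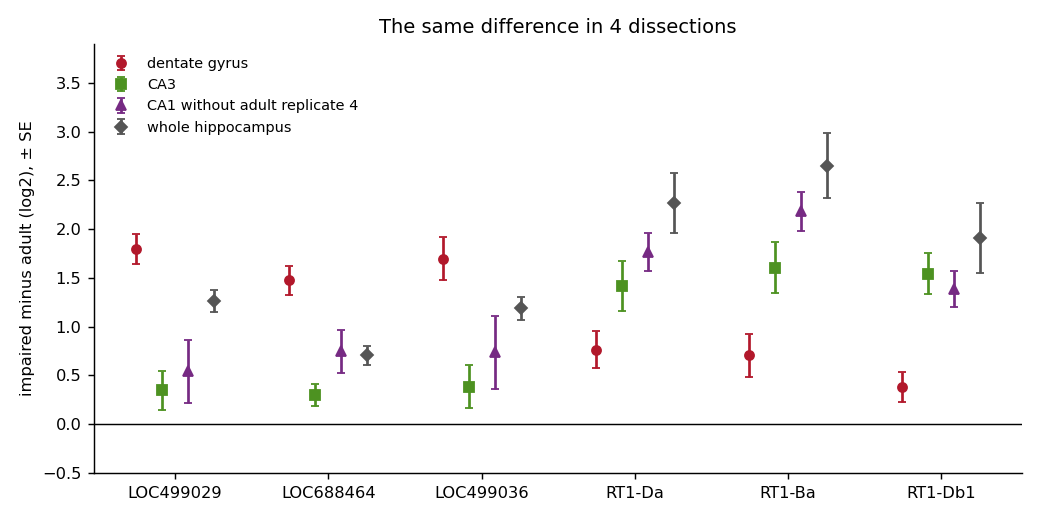
Impaired minus adult difference (log2, ± SE) in the dentate gyrus, CA3, CA1 without adult replicate 4 and whole hippocampus, for the 3 called probes and 3 MHC class II chains. The called probes are highest in the dentate gyrus (1.80, 1.48 and 1.70), and the class II chains are lowest there (0.76, 0.71 and 0.38).

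Below the 3 called probes every adjusted p was 1.0. At an unadjusted p under 0.05 there were 112 higher probes (1.15%) and 75 lower probes (0.769%), or 187 together. With no difference between the groups, a share of 0.05 of the probes would be expected there, so 187 was fewer than chance gives. All 4 impaired arrays lay above all 4 adult arrays for 61 probes (0.626%) and below them for 43 (0.441%). In each direction this was also rarer than chance alone gives for 4 against 4 arrays. These counts are therefore no sign of differences beyond the called probes. The counts at an unadjusted p under 0.05 moved with single arrays. They were 200 higher and 163 lower without adult replicate 1, 317 and 212 without adult replicate 2, 58 and 52 without adult replicate 3, 134 and 186 without impaired replicate 1, and 192 and 175 without impaired replicate 2. The median standard error of a difference was 0.161, the median difference of all probes was 0.012, and only the 3 called probes differed by more than 1. Genes named from here on did not pass the test and are given as values, with unadjusted p from limma.

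**Figure D3:**
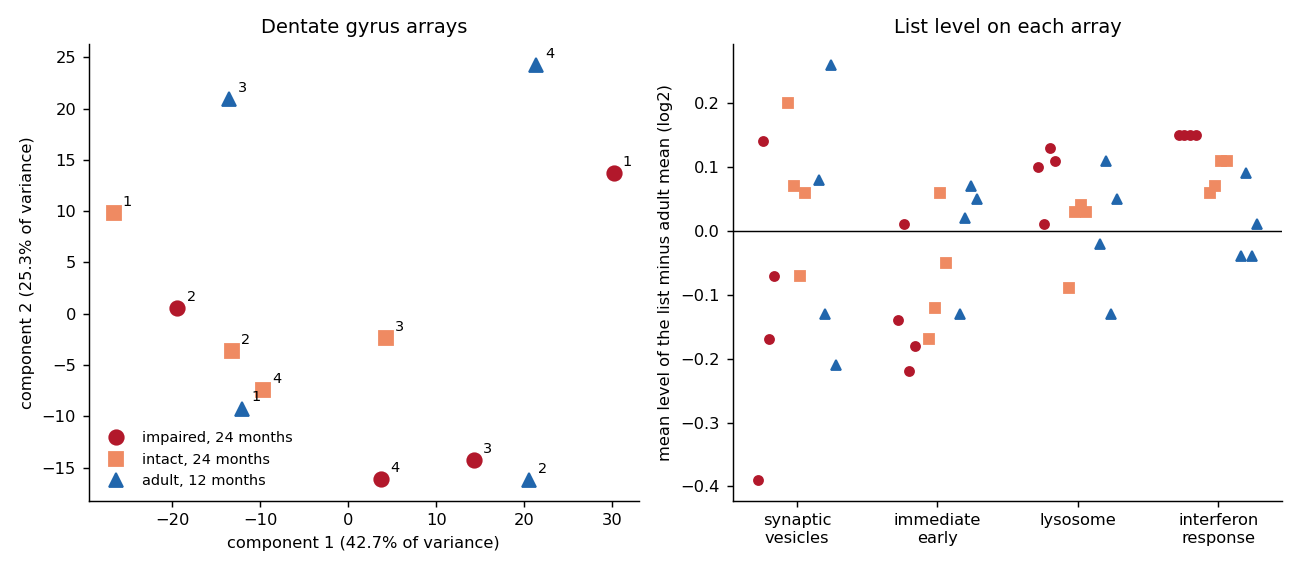
Left, the 12 dentate gyrus arrays on the first and second principal components (42.7% and 25.3% of variance), numbered by replicate. Right, the mean log2 level of the synaptic vesicle, immediate early, lysosome and interferon response lists on each array minus the adult mean. Impaired and adult arrays overlap for the synaptic vesicle, immediate early and lysosome lists and are apart for the interferon response list (6.93 on each impaired array, 6.74 to 6.87 on the adult arrays).

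MHC class II genes serve antigen presentation. Class II molecules are pairs of an alpha and a beta chain that show peptides of engulfed material to T cells, and in the brain microglia are their main source. RT1-Da, an alpha chain, had the largest difference above 0, after the 3 called probes, among the genes named here. It had 8.33, 7.96, 8.23 and 8.29 on the impaired arrays and 7.98, 8.42, 8.62 and 8.80 on the intact arrays, against 7.10, 7.86, 7.47 and 7.32 on the adult arrays. Impaired and adult arrays did not overlap, although impaired replicate 2 and adult replicate 2 were close. Its difference was 0.76 ± 0.19 (1.70-fold, unadjusted p = 0.00136).

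RT1-Ba, the other alpha chain tested, had 6.45, 6.29, 5.97 and 6.53 on the impaired arrays and 6.29, 6.85, 7.33 and 6.95 on the intact arrays, against 5.17, 6.01, 5.75 and 5.49 on the adult arrays. Impaired replicate 3 lay just below adult replicate 2, so the groups overlapped, and the probe was detected on 2 of 4 adult arrays. The difference was 0.71 ± 0.22 (unadjusted p = 0.00678). RT1-Db1, a beta chain, had 5.64, 5.85, 5.79 and 5.84 on the impaired arrays and 5.56, 6.19, 6.12 and 6.35 on the intact arrays, against 5.45, 5.43, 5.45 and 5.27 on the adult arrays. Impaired and adult arrays were apart but near the detection limit, with the probe detected on 3 impaired arrays and 1 adult array, and the difference was 0.38 ± 0.15 (unadjusted p = 0.0249).

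The stretches before these 3 genes are printed because class II genes are known to share promoter boxes, among them a Y box built on an inverted CCAAT. They are the 120 bases before the gene start in RefSeq's GRCr8 assembly of the rat, read on the strand of the gene, with the letters CTGATTGG in capitals. RT1-Da lies at chr20:4515295-4515414 on the plus strand, RT1-Ba at chr20:4576937-4577056 on the plus strand and RT1-Db1 at chr20:4560163-4560282 on the minus strand.
RT1-Da: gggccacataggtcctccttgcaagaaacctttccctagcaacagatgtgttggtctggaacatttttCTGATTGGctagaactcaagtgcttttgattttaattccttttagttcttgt
RT1-Ba: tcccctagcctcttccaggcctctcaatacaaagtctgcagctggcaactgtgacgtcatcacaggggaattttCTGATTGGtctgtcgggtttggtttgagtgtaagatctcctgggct
RT1-Db1: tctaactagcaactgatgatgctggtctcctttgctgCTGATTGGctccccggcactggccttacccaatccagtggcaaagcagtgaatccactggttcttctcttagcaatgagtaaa

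The capital letters begin 52 bases before the start of RT1-Da, 46 before that of RT1-Ba and 83 before that of RT1-Db1, each on the gene's own strand. Searched on both strands (CTGATTGG or CCAATCAG), they occurred in the same 120-base window of 710 of 33469 rat promoters (2.12%). The match describes these letters only and was not linked to any level measured here.

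**Figure D4:**
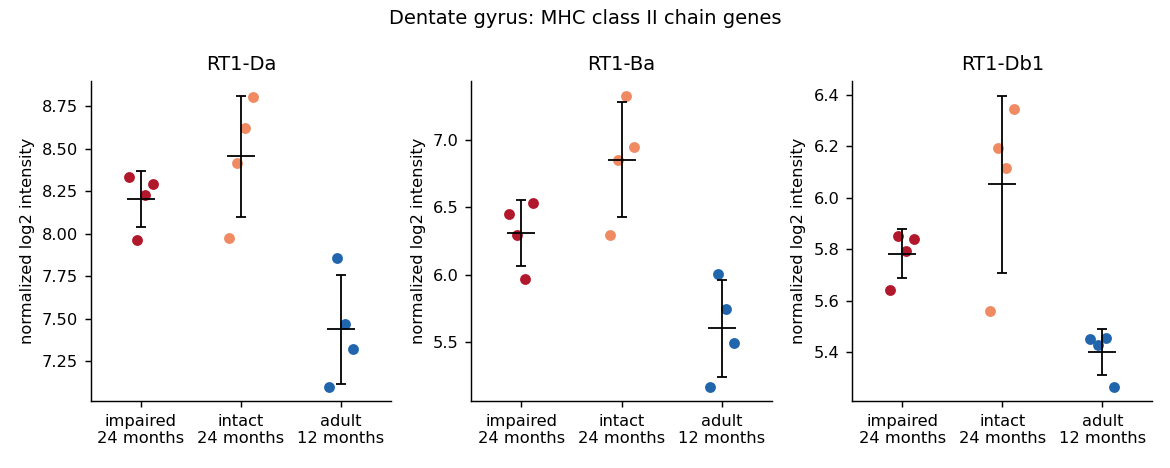
Normalized log2 intensity of RT1-Da, RT1-Ba and RT1-Db1 on the 12 dentate gyrus arrays, by group, with a point per array and the mean ± SD (n = 4 per group). Impaired and adult arrays are apart for RT1-Da and RT1-Db1 and overlap for RT1-Ba, and the intact arrays spread the widest for RT1-Da, RT1-Ba and RT1-Db1.

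The class II list had 5 tested genes in the dentate gyrus, with a median difference of 0.383 against 0.012 over all genes tested, and 5 of 5 were above 0, as were 5187 of the 9749 probes. The mean level of the list was 8.02, 7.74, 7.82 and 7.94 on the impaired arrays, against 7.26, 7.59, 7.35 and 7.42 on the adult arrays, and these were apart. At an unadjusted p under 0.05, 3 of 5 were higher, where 1.15% of all probes were. The other members were Ifi30, a thiol reductase that unfolds antigens in lysosomes, at 0.31 ± 0.20, and Ctss, a cathepsin that trims the invariant chain, at 0.20. Cd74, the invariant chain itself, was on the array but did not pass the detection filter, and 4 further list members, with the class II regulator Ciita among them, were detected on none of the 8 arrays. RT1-Db1 passed the filter with 3 impaired arrays and 1 adult array, and RT1-Ba with 4 impaired and 2 adult arrays. Both thus entered the list through the group where they were higher. The counts for the list depend on that filter, as does its median, which is the value of RT1-Db1. Intact minus adult was 1.02 ± 0.19 for RT1-Da and 1.25 ± 0.22 for RT1-Ba (adjusted p = 0.19 and 0.167, limma), and that comparison shares the adult arrays.

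The class II chains were measured with larger differences outside the dentate gyrus. RT1-Da was at 1.41 ± 0.26 in CA3 (adjusted p = 0.0515), 1.77 ± 0.19 in CA1 without adult replicate 4 (adjusted p = 0.00188) and 2.27 ± 0.31 in whole hippocampus (adjusted p = 0.000204). RT1-Db1 was at 1.54 ± 0.21 in CA3 (adjusted p = 0.0166), 1.39 ± 0.18 in CA1 without that array (adjusted p = 0.013) and 1.91 ± 0.36 in whole hippocampus (adjusted p = 0.0127). Whole hippocampus impaired replicate 5 was far above its group, at 13.09 for RT1-Da (group median 10.55) and 10.28 for RT1-Db1 (group median 7.49). It raises both whole hippocampus differences, and a fit without it was not made. Every impaired whole hippocampus array lay above every adult one for both genes. The dentate gyrus minus CA3 term was -1.16 ± 0.34 for RT1-Db1 (unadjusted p = 0.00174), -0.90 ± 0.44 for RT1-Ba (unadjusted p = 0.0474) and -0.65 ± 0.34 for RT1-Da (unadjusted p = 0.0678), and the adjusted p was 1.0 for each. Levels were also lower in the dentate gyrus, where RT1-Da averaged 8.20 ± 0.17 on impaired and 7.44 ± 0.32 on adult arrays, against 11.08 ± 0.29 on impaired and 9.66 ± 0.57 on adult CA3 arrays (SD, n = 4 each).

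Class II values are read beside markers of microglia, whose list had 14 tested genes with a median of 0.094 and 10 above 0. Its mean level ran from 8.17 to 8.53 on the impaired arrays and from 8.01 to 8.46 on the adult arrays, so the groups overlapped. Fcgr3a, a receptor for antibodies, was at 0.43 ± 0.18 (unadjusted p = 0.0313), Laptm5, a lysosomal protein of blood-derived lineages, at 0.38 ± 0.25, and Trem2, a microglial receptor for lipids, at 0.37 ± 0.21. The member farthest from 0 ran the other way: Sparc, a secreted matrix-binding protein, was at -0.59 ± 0.38 with all arrays and -0.21 without adult replicate 4, its highest array. The other members at or below 0 were Cd53, Ly86 and P2ry13, between -0.021 and -0.011. Aif1, the microglial marker also called Iba1, had 10.65, 10.14, 10.56 and 10.53 on the impaired arrays, against 10.16, 10.81, 10.04 and 10.58 on the adult arrays, and these overlapped fully. Of 24 list genes on the array, 7 were detected on none of the 8 arrays, among them Ptprc and Spi1. The part of microglial markers in the class II values was not tested.

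Complement genes, whose products tag synapses and debris for removal, had a median of 0.109 over 15 tested genes, with 10 above 0 (5187 of 9749 probes in all) and 2 higher at an unadjusted p under 0.05 (1.15% of all probes). C4b, a complement component of astrocytes and microglia, had 7.35, 7.33, 7.76 and 7.48 on the impaired arrays, against 6.76, 7.09, 6.55 and 7.47 on the adult arrays. Adult replicate 4 lay within the impaired range, and the difference was 0.52 ± 0.18 (unadjusted p = 0.0122). Serping1, the inhibitor of the first complement proteases, had 6.23, 5.66, 6.12 and 6.19 on the impaired arrays, against 5.26, 5.68, 5.35 and 5.97 on the adult arrays. The groups overlapped, and the probe was detected on 3 of the 4 impaired and 1 of the 4 adult arrays. Serping1 thus entered the list through the group where it was higher, and the count of 2 depends on that filter. The Serping1 difference was 0.48 ± 0.17 (unadjusted p = 0.0151), and it was 0.87 in CA3 (adjusted p = 0.0358) and 0.88 in whole hippocampus (adjusted p = 0.000145). The subunits of C1q, which start the cascade, were at 0.26 ± 0.15 for C1qa, 0.17 ± 0.14 for C1qb and 0.04 ± 0.17 for C1qc.

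The interferon response list had the tightest impaired arrays. Its 17 tested genes had a median of 0.107, with 15 above 0 (5187 of 9749 probes in all) and 3 higher at an unadjusted p under 0.05 (1.15% of all probes). The mean level of the list was 6.93 on each of the 4 impaired arrays and 6.84, 6.85, 6.89 and 6.89 on the intact arrays, against 6.74, 6.87, 6.74 and 6.79 on the adult arrays. Every impaired array lay above every adult array. The array held 35 genes of the list, and 15 of them were detected on no impaired or adult array, among them Isg15, Ifit2 and Ifit3. The values for the list thus describe its tested members only. Irgm, an interferon-induced GTPase, was at 0.40 ± 0.16 (unadjusted p = 0.0268), Ifitm1, a membrane protein that hinders virus entry, at 0.34 ± 0.15 (unadjusted p = 0.0489) and Irf1, a transcription factor of the interferon response, at 0.31 ± 0.14 (unadjusted p = 0.0412). The median of the same genes was 0.004 in CA3, -0.023 in CA1 without adult replicate 4 and 0.148 in whole hippocampus.

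MHC class I and its peptide-loading genes had a median of 0.114 over 19 tested genes, with 14 above 0. B2m, the light chain of class I, was at 0.12 ± 0.12 with all arrays and 0.03 without adult replicate 4. Pdia3, a chaperone of the loading complex, ran the other way, with 9.30, 8.32, 8.75 and 8.52 on the impaired arrays and 8.93, 9.29, 9.37 and 9.05 on the adult arrays, a difference of -0.44 ± 0.19 (unadjusted p = 0.0395). Lysosomal genes had a median of 0.108 over 36 tested genes, with 29 above 0 (5187 of 9749 probes in all). The member with the smallest p, and the 1 under 0.05 where 1.15% of all probes were, was Lgmn, a lysosomal protease, at 0.23 ± 0.10 (unadjusted p = 0.0452). The lysosome median was 0.106 in CA3, 0.141 in CA1 without adult replicate 4 and 0.076 in whole hippocampus.

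General astrocyte markers had a median difference of 0.027 over 19 tested genes. The astrocyte reactivity list had a median of 0.166 over 16 tested genes, with 14 above 0, and shares C4b and Serping1 with the complement list. Gfap, the intermediate filament of astrocytes, had 12.90, 13.45, 13.45 and 13.46 on the impaired arrays, against 13.21, 13.01, 13.13 and 13.23 on the adult arrays. The first impaired array was below every adult array and the other three above them, and the difference was 0.17 ± 0.14 with all arrays and 0.31 without impaired replicate 1. In CA3 the Gfap difference was 0.62 (adjusted p = 0.0207) and in whole hippocampus 0.40 (adjusted p = 0.0452), and the dentate gyrus minus CA3 term was -0.46 (unadjusted p = 0.11, adjusted p = 1.0). Vim, another intermediate filament, was at 0.17 ± 0.28 with all arrays and at -0.13 without impaired replicate 1, which had the highest level (9.43) of the 8. S100a4, a calcium-binding protein, was at 0.31 ± 0.22, and at 0.10 without adult replicate 3.

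Myelin genes had a median of 0.083 over 26 tested genes, with 19 above 0. Mbp, a main protein of the sheath, had 8.42, 9.96, 10.11 and 10.56 on the impaired arrays, against 9.86, 9.27, 9.75 and 9.87 on the adult arrays. The difference was 0.08 ± 0.34, and 0.53 without impaired replicate 1, the lowest array.

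Lists for tissue that a dissection can take along showed medians close to that of all genes. These were 0.005 for 7 choroid plexus genes, -0.04 for 12 meningeal genes, -0.005 for 12 genes of endothelium and pericytes, 0.064 for 2 blood cell genes and 0.002 for 12 genes of thalamus and neighbouring tissue. Ttr, the transport protein that choroid plexus makes in bulk, had 5.38, 5.14, 6.77 and 5.55 on the impaired arrays, against 7.95, 6.14, 5.52 and 5.33 on the adult arrays. The Ttr probe was detected on 1 impaired and 3 adult arrays, so it passed the filter through the adult group, where it was higher. Single arrays were high in both groups, and the difference of -0.52 ± 0.53 was 0.05 without adult replicate 1. Hbb, a globin of red cells, ran from 11.45 to 11.80 on the impaired arrays and from 10.59 to 12.27 on the adult arrays. Of the 12 meningeal genes 5 were above 0, the highest being Ptgds, a prostaglandin synthase, at 0.26 ± 0.17. The lowest were Igf2, a growth factor, at -0.40 ± 0.19 (unadjusted p = 0.0536), or -0.215 without impaired replicate 2, and Col1a2, a fibrillar collagen chain, at -0.37 ± 0.14 (unadjusted p = 0.0206). Of the choroid plexus genes on the array, 12 of 19 were detected on none of the 8 arrays.

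Granule neuron markers had differences on both sides of 0. Their list had a median of 0.018 over 11 tested genes, with 6 above 0 and 0 at an unadjusted p under 0.05 in either direction by limma. The mean level of the list was 8.30, 8.67, 8.43 and 8.55 on the impaired arrays, against 8.74, 8.47, 8.63 and 8.24 on the adult arrays. Adult replicate 4 was the lowest of all, and impaired replicate 1 the next. Prox1, the transcription factor that keeps granule neurons in their fate, had 6.84, 7.00, 6.77 and 6.89 on the impaired arrays, against 7.64, 6.90, 7.48 and 6.40 on the adult arrays. Its difference of -0.23 ± 0.23 ran from -0.46 without adult replicate 4 to -0.05 without adult replicate 1. Calb1, a calcium buffer of mature granule neurons, was at -0.11 ± 0.12, C1ql2 at 0.02 ± 0.13, Dsp, a desmosomal plaque protein, at 0.03 ± 0.14 and Neurod1, a transcription factor of granule neuron differentiation, at -0.18 ± 0.17.

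The lowest list was that of CA1 pyramidal neurons, with a median of -0.448 over 4 tested genes, and its low members were highest on 1 adult array. Of 11 list genes on the array, 4 were detected on none of the 8 arrays. The other tested members of the list were close to 0, Nr3c2 at -0.006 ± 0.13 and Htr1a at -0.11 ± 0.41. Htr1a averaged higher in the dentate gyrus (7.78) than in CA1 (6.05). Wfs1, an endoplasmic reticulum protein that marks CA1, had 5.50, 5.71, 5.38 and 5.92 on the impaired arrays, against 6.54, 5.52, 6.01 and 8.14 on the adult arrays. Its probe was detected on 2 impaired and 3 adult arrays, so its impaired levels lie near the detection limit. Ccn3, a secreted matrix-associated protein also strong in CA1, had 7.89, 7.64, 7.20 and 7.58 on the impaired arrays, against 8.76, 7.87, 7.46 and 9.37 on the adult arrays. Adult replicate 4, the highest array for both, was the array with the lowest granule marker level. Adult replicate 1, the next highest for both, had the highest granule marker level (8.74). The differences were -0.93 ± 0.41 and -0.79 ± 0.33 with all arrays, and -0.40 and -0.45 without adult replicate 4. The intact arrays, at 5.23 to 5.81 for Wfs1 and 6.88 to 7.58 for Ccn3, lay close to the impaired ones. The part of CA1 tissue in these values was not tested beyond leaving adult replicate 4 out.

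CA3 markers had a median of 0.027 over 8 tested genes. Nnat, a small membrane protein from an imprinted gene, was the exception, with 7.61, 9.18, 8.55 and 8.31 on the impaired arrays and 8.75, 8.91, 8.80 and 8.83 on the intact arrays, against 8.66, 9.02, 9.70 and 9.79 on the adult arrays. Impaired replicate 2 lay within the adult range, and the difference was -0.88 ± 0.30 (unadjusted p = 0.0104), or -0.61 without impaired replicate 1. A second Nnat probe, dimmer and detected on 1 impaired and 3 adult arrays, was at -0.70 ± 0.20 (unadjusted p = 0.00391). This second probe passed the filter through the adult group, where it was higher, so it is no independent support for the first. In CA3 itself the first probe was at -0.37 (adjusted p = 0.483).

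Genes of synaptic vesicles and transmitter release had a median of -0.091 over 34 tested genes, with 14 above 0. Slc17a7, the vesicular transporter that loads glutamate, had the lowest difference of all probes tested. It had 8.45, 10.01, 9.69 and 9.96 on the impaired arrays and 10.91, 10.62, 9.86 and 10.17 on the intact arrays, against 10.45, 9.45, 11.55 and 10.65 on the adult arrays. Adult replicate 2 lay below 3 of the 4 impaired arrays, and the difference was -0.998 ± 0.42 (unadjusted p = 0.0313). It was -0.64 without impaired replicate 1 and -0.66 without adult replicate 3. Syn1, a synapsin that tethers vesicles, was at -0.83 ± 0.43 with all arrays and -0.49 without adult replicate 3, and Rab3a, a vesicle GTPase, at -0.66 ± 0.35 and -0.33 without impaired replicate 1.

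The level of the vesicle genes differed between arrays of 1 group, along the first principal component. The list averaged 8.80, 9.33, 9.02 and 9.12 on the impaired arrays and 9.39, 9.26, 9.12 and 9.25 on the intact arrays, against 9.27, 9.06, 9.45 and 8.98 on the adult arrays. Impaired replicate 1 and adult replicates 2 and 4, the 3 arrays highest on that component (30.1, 20.6 and 21.4), were among the lowest for the list. Impaired replicate 2 and intact replicate 1, the lowest on it (-19.4 and -26.6), were among the highest. The part of this axis in the synaptic values was not tested.

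Glutamate receptors and their scaffolds had a median of -0.106 over 27 tested genes, with 8 above 0 and 0 at an unadjusted p under 0.05 by limma. Cacng8, an auxiliary subunit of AMPA receptors, was at -0.53 ± 0.30, and at -0.21 without adult replicate 3. Grin2b, an NMDA receptor subunit, was at 0.03 ± 0.30, with levels from 8.68 to 9.93 on the impaired arrays and from 8.53 to 9.86 on the adult arrays. Interneuron genes had a median of -0.10 over 19 tested genes, with 8 above 0. Sst, a peptide of dendrite-targeting interneurons, was at -0.29 ± 0.22 and Gad1, which makes GABA, at -0.15 ± 0.15, and without impaired replicate 1 they were at -0.13 and -0.05. Npy, a peptide, was at 0.02 ± 0.19 and Pvalb, a calcium buffer of fast-spiking cells, at 0.15 ± 0.11.

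Immediate early genes, which neurons switch on when active, had a median of -0.134 over 24 tested genes, with 5 above 0 (5187 of 9749 probes in all) and 2 lower at an unadjusted p under 0.05 (0.769% of all probes). Jund, a member of the AP-1 factors, had 12.60, 12.60, 12.62 and 12.56 on the impaired arrays and 12.98, 12.67, 12.63 and 12.39 on the intact arrays, against 12.77, 12.62, 13.43 and 13.34 on the adult arrays. The impaired arrays were nearly level with each other, and adult replicate 2 lay just above them. The difference was -0.45 ± 0.18 (unadjusted p = 0.0283). Arc, a regulator of AMPA receptor traffic, had 7.85, 8.14, 7.70 and 8.02 on the impaired arrays, against 8.18, 8.12, 8.19 and 8.46 on the adult arrays, with 1 impaired array inside the adult range and a difference of -0.31 ± 0.13 (unadjusted p = 0.0319). Fos was at -0.41 ± 0.21 and Egr1 at -0.33 ± 0.17 (-0.18 without adult replicate 2), both transcription factors induced by firing. The list median was -0.055 in CA3, -0.194 in CA1 without adult replicate 4 and 0.051 in whole hippocampus.

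Neurotrophin and growth factor genes had a median of 0.006 over 21 tested genes, with Bdnf, the main activity-dependent neurotrophin, at 0.07 ± 0.16 and Ntrk2, its receptor, at 0.12 ± 0.16. Genes of immature neurons and proliferation had a median of -0.098 over 17 tested genes, with 6 above 0. Sox11, a transcription factor of newborn neurons, had 5.96, 5.49, 6.27 and 5.47 on the impaired arrays, against 5.75, 6.00, 6.05 and 6.27 on the adult arrays. The probe was detected on 2 impaired and 3 adult arrays, so its difference of -0.22 ± 0.18 lies near the detection limit. Sox4, a relative of Sox11, was at -0.18 ± 0.18, and 8 of the 26 list genes on the array were detected on none of the 8 arrays.

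Metabolic and stress lists lay close to the median of all genes. The median was 0.004 for 59 genes of oxidative phosphorylation, 0.059 for 77 ribosomal protein genes, 0.037 for 35 proteasome genes, 0.003 for 26 chaperone genes, 0.026 for 33 antioxidant genes and 0.018 for 22 genes of cholesterol synthesis. Glucocorticoid-responsive genes had a median of 0.037 over 15 tested genes, with Sgk1, a steroid-induced kinase, at 0.32 ± 0.13 (unadjusted p = 0.0305) and Fkbp5, a co-chaperone of the glucocorticoid receptor, at 0.19 ± 0.14. The apolipoprotein and efflux list had a median of -0.014 over 12 tested genes. Cyp46a1, the enzyme by which neurons dispose of cholesterol, was its lowest member at -0.76 ± 0.39, and at -0.34 without impaired replicate 1, while Apoe, the main lipid carrier of the brain, was at -0.03 ± 0.16. The remaining medians were -0.003 for 20 genes of amyloid, secretases and tau, -0.049 for 29 extracellular matrix genes, -0.047 for 35 genes of calcium signalling, 0.005 for 14 clock genes and 0.10 for 15 genes of reactive microglia.

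**Figure D5:**
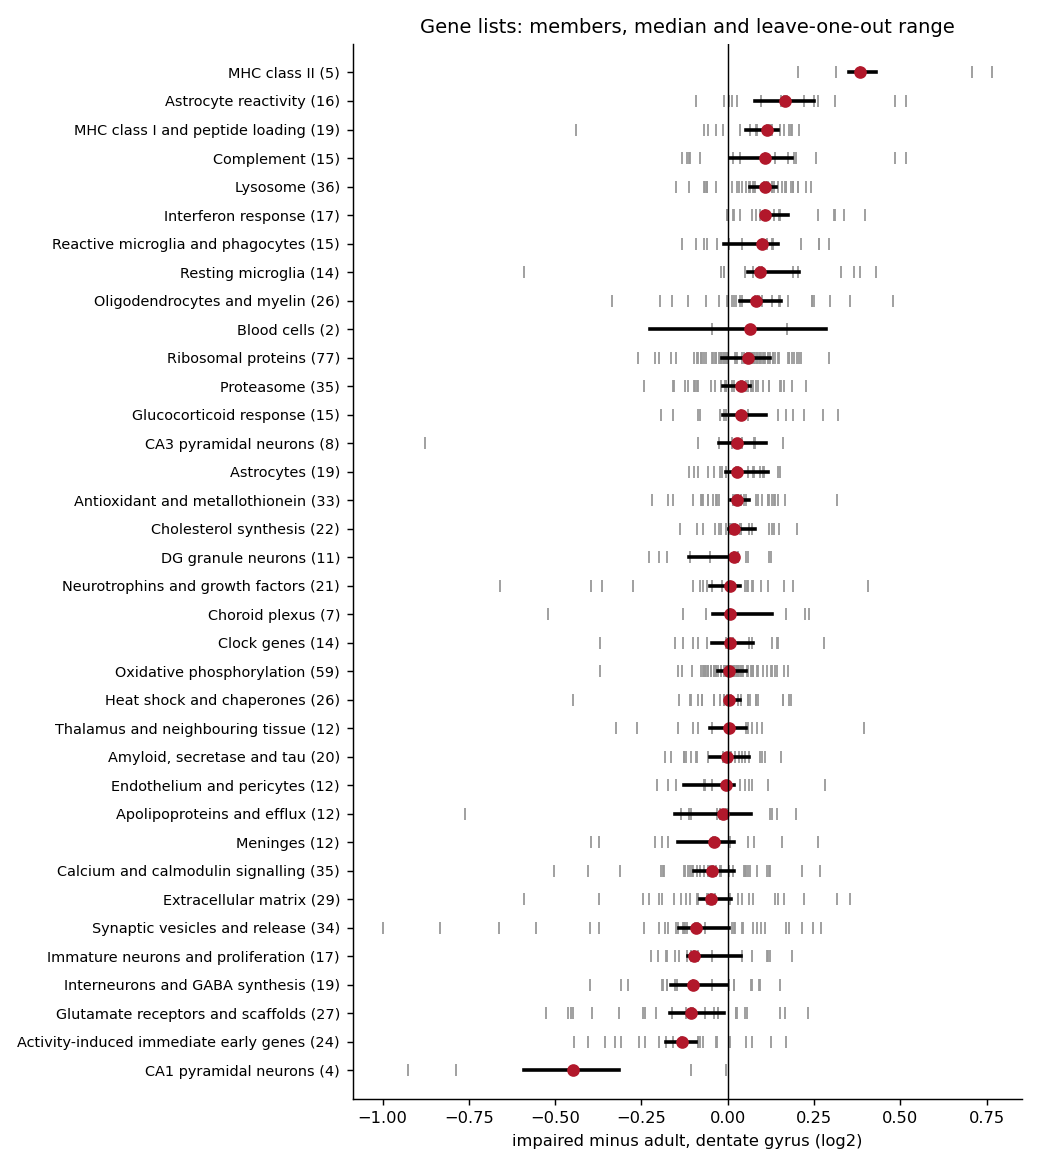
Impaired minus adult difference (log2) in the dentate gyrus for 36 gene lists, with a grey tick per tested gene (their number in brackets), the median as a red point and a black line over the medians with each of the 8 arrays left out in turn. MHC class II is highest at 0.383 and CA1 pyramidal neurons lowest at -0.448, while 0 of the listed genes passed the threshold in limma. The class II median is the value of RT1-Db1, which passed the detection filter through the impaired group, where it was higher.

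The next values are for single genes with a symbol that were among the smallest p on the higher side, after RT1-Da. These genes, and those on the lower side below, were picked by p or size in this same comparison. Separation of their arrays is therefore no further support. Ccn4, a secreted Wnt-induced matrix protein, had 6.39, 6.79, 6.85 and 6.80 on the impaired arrays and 6.66, 6.88, 6.87 and 6.61 on the intact arrays, against 6.40, 6.06, 5.84 and 6.25 on the adult arrays. Impaired replicate 1 fell within the adult range and the others lay above it, with a difference of 0.57 ± 0.15 (unadjusted p = 0.00176). Col6a3, a chain of a microfibril collagen, had 7.83, 7.74, 7.99 and 7.66 on the impaired arrays, against 7.23, 7.57, 7.04 and 7.42 on the adult arrays. These did not overlap, at 0.49 ± 0.13 (unadjusted p = 0.00274). Zfhx3, a homeodomain and zinc finger factor, had 7.74, 7.22, 7.19 and 7.34 on the impaired arrays, against 7.13, 6.85, 6.59 and 6.81 on the adult arrays, also without overlap, at 0.53 ± 0.14 (unadjusted p = 0.0028).

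Pcdhb15, a protocadherin of neuronal adhesion, was at 0.49 ± 0.14, Pla2g4a, a phospholipase that releases arachidonic acid, at 0.52 ± 0.15, Pus1, which makes pseudouridine in RNA, at 0.40 ± 0.12 and Spag6, a protein of the axoneme, at 0.43 ± 0.12. For each of these 4 genes all impaired arrays lay above all adult arrays (as for 0.626% of all probes), with unadjusted p between 0.00295 and 0.00564. Spag6 was detected on only 1 adult array, so it passed the filter through the impaired group, where it was higher. Bmp7, a bone morphogenetic protein, was at 0.63 ± 0.19, Itgb4, an integrin beta chain, at 0.65 ± 0.20 and Pbx3, a homeodomain factor, at 0.48 ± 0.15, each with overlapping arrays. Bmp7 was the 1 gene of these 3 that passed the threshold elsewhere, at 0.75 in CA3 (adjusted p = 0.00189) and 0.64 in whole hippocampus (adjusted p = 0.0181).

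On the lower side the smallest p belonged to Adap1, a brain-enriched regulator of the GTPase Arf. It had 5.75, 5.50, 5.70 and 5.88 on the impaired arrays and 5.77, 6.13, 5.58 and 5.57 on the intact arrays, against 5.96, 6.20, 6.42 and 6.52 on the adult arrays. Impaired and adult arrays did not overlap, and the difference was -0.56 ± 0.16 (unadjusted p = 0.00326), with detection on 2 of 4 impaired arrays. Usf2, a transcription factor that binds E boxes, had 7.19, 7.34, 7.36 and 7.33 on the impaired arrays, against 7.71, 7.58, 7.69 and 7.59 on the adult arrays. Its groups were apart and tight, at -0.34 ± 0.10 (unadjusted p = 0.00395).

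Trim14, a tripartite motif protein of innate immunity, was at -0.44 ± 0.13 and Asgr2, a subunit of the asialoglycoprotein receptor, at -0.39 ± 0.12. For both, every impaired array lay below every adult array (as for 0.441% of all probes). Phospho1, a phosphatase known from bone, was at -0.68 ± 0.22, Wnt16, a Wnt ligand, at -0.46 ± 0.16 and Plppr2, a phospholipid phosphatase-related membrane protein, at -0.81 ± 0.37, with overlapping arrays. Trim14, Phospho1 and Wnt16 were each detected on only 1 of the 4 impaired arrays, so they passed the filter through the adult group, where they were higher. Plppr2 followed the synaptic genes in its low impaired replicate 1 (7.11) and low adult replicate 2 (7.49).

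Set against CA3, limma called 0 of 9749 probes whose difference was unlike that in the dentate gyrus (0%), with 57 at an unadjusted p under 0.05. Against CA1 it called 0 as well (0%), with 566 at an unadjusted p under 0.05 and 379 without CA1 adult replicate 4. Gpr75, a G protein-coupled receptor, was at 0.18 ± 0.12 in the dentate gyrus and -0.41 in CA3, a difference between regions of 0.59 (unadjusted p = 0.000396, adjusted p = 1.0). Ccn4, at -0.07 in CA3, differed by 0.65 (unadjusted p = 0.000618, adjusted p = 1.0). Gpsm2, which orients the mitotic spindle, had 8.79, 8.76, 8.46 and 8.49 on the impaired arrays, against 8.29, 8.06, 8.26 and 8.27 on the adult arrays, a separation of 0.40 ± 0.15 (unadjusted p = 0.0158). It was at -0.21 in CA3 and differed between the regions by 0.61 (unadjusted p = 0.021, adjusted p = 1.0). LOC497853, known by locus number, was at -0.34 ± 0.13 in the dentate gyrus and 0.23 in CA3, a difference of -0.58 (unadjusted p = 0.00839, adjusted p = 1.0).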

How the data were processed

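Total RNA from each dissection was, per the labels, made into biotinylated cRNA and hybridized to bead arrays from Illumina. Per the file headers, the authors deposited 2 values per probe and array: the average signal of its beads, which is an intensity on a linear scale, and the p-value of its detection above background. They also deposited a table of processed intensity values, which within each array lay on a straight line against the raw signal (largest residual 0.0212). The software behind these values was not given in the sources used here.

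Raw signals were background-corrected with limma 3.58.1 in R 4.3.3 (neqc, offset 16, with negative controls that the function infers from detection), quantile normalized over all 60 arrays and put on the log2 scale. Probes detected at p under 0.01 on at least 4 of the 8 impaired and adult dentate gyrus arrays were fitted on the 12 dentate gyrus arrays (lmFit, eBayes). Tests were two-sided, Benjamini-Hochberg adjusted over 9749 probes, threshold 0.05. CA3, CA1 and whole hippocampus (with slide as a term) were fitted apart over the same probes, and differences between regions in 1 fit of 36 arrays. The number of arrays limits the precision. The fit was tested on simulated data.

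The comparison, the gene lists and the rule for named genes were chosen with earlier results of these data known. The rule took the called probes, those with the smallest p or the most extreme differences in each direction, up to 4 members per list by p, 6 per region test and a fixed panel, and the text names a selection of these. Lists use each gene's brightest tested probe, and some share genes. Of the fixed panel, Cd74, Cd68, Nr3c1 and Ecrg4 did not pass the detection filter, and RT1-Bb, Hba-a1, Dcx and Gria1 had no probe of that name. Gene symbols are those of the array annotation, updated through RefSeq's rat gene table, and promoters are from RefSeq's GRCr8.

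Alternatives were no background correction, the processed values, dentate gyrus arrays normalized alone, no detection filter, detection on all 8 arrays, a fit of only those 8, a fit with CA1 and CA3, an intensity trend with a robust prior, array weights, a replicate block and each array left out. Figures were drawn with matplotlib 3.10.9, and tables made with pandas 2.3.3 and numpy 2.4.6 under Python 3.11.15.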

Additional observations from a re-analysis of the deposited data

Results flagged for a closer look

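Each group of 4 arrays was searched for an array far from its 3 fellows (a gap beyond Dixon's limit for 4 values). Of 234 groups, over 81 genes and 36 list means in impaired and adult rats, 15 held such an array. Chance alone gives about 1 in 20.

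Impaired replicate 1 stood apart for Gfap (12.90, the lowest impaired array), Ntrk2 (10.75, the lowest), Ccn4 (6.39, the lowest), Usf2 (7.19, the lowest) and the mean of the amyloid, secretase and tau list (9.41, the lowest). Impaired replicate 2 stood apart for Ifi30 (6.64, the lowest), Trem2 (9.24, the lowest), Itgb4 (7.02, the lowest), Trim14 (5.70, the highest) and Wnt16 (5.74, the highest). For the interferon response list, impaired replicate 4 differed from the others in a digit beyond the printed level of 6.93.

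Among adult arrays, replicate 4 stood apart for RT1-Db1 (5.27, the lowest), B2m (12.68, the lowest) and Trim14 (6.18, the highest), and replicate 2 for Gpsm2 (8.06, the lowest). None of the 3 called probes had such an array. No test of a difference between regions passed its threshold.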

How the results depend on the processing

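LOC499029 and LOC688464 kept their calls in the processed values, with no or with the strictest detection filter, in a fit of only the 8 arrays and with each array left out. In the fit with the CA1 and CA3 arrays 1 probe was called higher, LOC688464 (adjusted p = 0.0242), against 0.111 for LOC499029 and 0.0994 for LOC499036. LOC499036 also lost its call in the processed values (0.342), with no detection filter (0.101) and with only the 8 arrays (0.105), was not tested where detection on all 8 was asked, and had 0.05 without impaired replicate 4. In each of the 18 alternatives 0 probes were called lower, and with single arrays left out 3 were called higher each time. Same-numbered impaired and adult arrays deviated from their group means in opposite directions (correlations -0.601 to -0.408). For same-numbered impaired and intact arrays the correlations ran from -0.211 to 0.212, and for intact and adult arrays from -0.469 to 0.177. Such correlations cannot decide whether the replicate numbers pair the samples. With a replicate block, 2 probes were called higher and 0 lower (LOC499036 at 0.0566). Of 78 uncalled genes 12 changed sign under some alternative, as did 22 of 36 list medians. The medians of class II (0.205 to 0.647), interferon response (0.035 to 0.175) and CA1 markers (-0.589 to -0.047) did not. Without adult replicate 3, Laptm5 was at 0.18 and Ifi30 at 0.15, and without adult replicate 1 Ifitm1 was at 0.21. Leaving out 1 array at a time, Ntrk2 ran from 0.004 to 0.26, Neurod1 from -0.31 to -0.076, Sox4 from -0.258 to -0.031 and Fkbp5 from 0.117 to 0.251. Signals near background limit the dimmest probes, where the detection filter and background correction matter most.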
